A study of Mus musculus with 2 samples.

Results

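The mitotic cell cycle genes are a list of 40 genes, named by symbol, of the 32285 genes counted in single-nucleus RNA-seq of mouse interscapular brown adipose tissue (BAT). All 40 symbols were found in both libraries. They encode spindle motors and microtubule proteins (11 genes), kinetochore and checkpoint proteins (5), cyclins and mitotic kinases (6), chromosome structure proteins (6), cytokinesis proteins (3) and replication, repair and chromatin proteins (6), with 3 further genes. A nucleus that held at least 4 UMIs over the list was counted as high in the list. A UMI marks an original RNA molecule. There were 891 such nuclei of 12771 in WT and 2218 of 11378 in KO.

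The genes of the list are transcribed mostly while a cell copies its DNA and prepares to divide. In mitosis, cyclin B with Cdk1 starts chromosome condensation, kinesins and their partners build the spindle, the kinetochore checkpoint holds the cell until every chromosome is attached, and the cytokinesis proteins part the daughter cells. Mature adipocytes and muscle fibres do not divide, whereas tissue macrophages, adipose stem and progenitor cells (ASPCs) and endothelial cells can. A high level of the list can therefore mark dividing nuclei among the latter, but list UMIs also followed the depth of a nucleus.

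Both libraries came from BAT of 8-week-old mice that carry floxed alleles of Srsf1, a splicing factor gene. The WT mice were Srsf1 flox/flox without Cre, and the KO mice were Adipoq-Cre; Srsf1 flox/flox, in which the adiponectin promoter drives Cre in mature adipocytes. With 1 library for each genotype, and how many mice went into it not given, no test between genotypes was possible, and genotype, animal and library cannot be told apart. Every interval below is a 95% exact interval (binomial for shares of nuclei, Poisson or conditional binomial for UMIs) and covers counting error alone. For a count of 0 the limit given is 3 counts of the total, not an interval.

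The WT library held 93102814 UMIs in 12846 barcodes (median 3439.5) and the KO library 80090208 UMIs in 11495 barcodes (median 4363). Srsf1 was lower in KO, at 68.5 counts per 1000000 UMIs (CPM) against 166 CPM over all nuclei. In adipocyte nuclei it was 59.7 CPM in KO and 183 CPM in WT, a log2 ratio of -1.61 (-1.72 to -1.51). It was also lower in the immune class, in which the adiponectin promoter is not known to be active (64.3 against 122 CPM). The same held in ASPCs (82.3 against 139 CPM), endothelial (82.3 against 142 CPM) and mural nuclei (91.3 against 154 CPM). The libraries differed in the median share of mitochondrial UMIs, which was 1.10% in WT and 0.0489% in KO. They shared 52 barcodes, 50 of them among kept nuclei, and 0 of these reached 4 list UMIs in both.

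Each nucleus was given a class from its summed marker UMIs. The immune class held 912 nuclei in WT (7.14% of the library) and 4485 in KO (39.4%), ASPCs 883 and 2365, endothelial cells 3463 and 1308, mural cells 444 and 235, and adipocytes 4527 and 1983. In both libraries all 12 immune markers, among them Ptprc and Adgre1, were highest in the immune class, and 12 adipocyte markers in WT and 11 of 12 in KO were highest in the adipocyte class. The 12 adipocyte markers, led by Pparg in WT and by Acaca in KO, still summed to 7015 CPM in the WT and 4467 CPM in the KO immune class, against 19346 and 19366 CPM in adipocytes. The immune markers summed to 155 and 341 CPM in adipocytes, with Mrc1 and Dock2 the most abundant and none at 0. Few immune nuclei lay near the limit of their class (21 in WT and 23 in KO), whereas 649 WT and 188 KO adipocyte nuclei did. Different clusters supplied the same class in each library. Of the immune nuclei 42.5% in WT were in cluster 11, and in KO 40.2% were in cluster 9 and 30.1% in cluster 10. Adipocytes were mostly in cluster 4 in WT (71.5%) and in cluster 22 in KO (89.8%). Of the WT ASPC nuclei 32.3% were in cluster 7, in which no class held a majority.

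Promoters of the list carried the letters known from cell cycle genes. The CHR element was read as TTTGAA, which reads TTCAAA on the opposite strand, and the CCAAT box as CCAAT, which reads ATTGG there. These are sites through which the DREAM complex and NF-Y are known to act on genes of the G2 phase and mitosis. The RefSeq windows of build GRCm38.p6 (250 bases before to 50 after a start) matched 34 of the 40 genes with 37 windows. TTTGAA was in 25 of the 37 windows (67.6%) and in 17.9% of all 32851 windows. Within 50 bases of the start on either side it was in 22 windows of the list (59.5%) and in 4.94% of all windows. CCAAT was in 30 of the 37 windows (81.1%) and in 37.4% of all. Both together, with TTTGAA near the start, were in 17 windows from 15 genes (45.9%) and in 2.08% of all windows. The windows of 4 genes with both motifs and, for contrast, of Ezh2, which held CCAAT and no TTTGAA, are shown 5′ to 3′ on the strand of the gene. Capitals mark both motifs on either strand.

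Top2a, chr11:99024140-99024439, minus strand: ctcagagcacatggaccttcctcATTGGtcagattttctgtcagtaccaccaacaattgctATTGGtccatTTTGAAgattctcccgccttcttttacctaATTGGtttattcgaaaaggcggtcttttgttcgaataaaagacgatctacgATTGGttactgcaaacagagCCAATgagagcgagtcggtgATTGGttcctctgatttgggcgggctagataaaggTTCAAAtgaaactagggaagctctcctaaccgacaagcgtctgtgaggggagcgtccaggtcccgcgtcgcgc
Cdk1, chr10:69352863-69353162, minus strand: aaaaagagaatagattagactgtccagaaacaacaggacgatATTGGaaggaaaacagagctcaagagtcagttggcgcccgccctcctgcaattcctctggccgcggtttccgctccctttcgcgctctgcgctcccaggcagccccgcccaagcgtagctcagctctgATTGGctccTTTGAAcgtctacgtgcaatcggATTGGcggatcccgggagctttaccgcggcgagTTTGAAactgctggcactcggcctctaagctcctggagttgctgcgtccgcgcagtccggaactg
Ccnb2, chr9:70421505-70421804, minus strand: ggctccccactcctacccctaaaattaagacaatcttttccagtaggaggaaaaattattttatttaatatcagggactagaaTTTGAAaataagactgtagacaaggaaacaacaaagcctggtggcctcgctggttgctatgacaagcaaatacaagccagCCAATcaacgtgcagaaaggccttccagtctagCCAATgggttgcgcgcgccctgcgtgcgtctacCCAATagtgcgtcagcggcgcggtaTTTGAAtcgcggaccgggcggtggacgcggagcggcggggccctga
Kif23, chr9:61946750-61947049, minus strand: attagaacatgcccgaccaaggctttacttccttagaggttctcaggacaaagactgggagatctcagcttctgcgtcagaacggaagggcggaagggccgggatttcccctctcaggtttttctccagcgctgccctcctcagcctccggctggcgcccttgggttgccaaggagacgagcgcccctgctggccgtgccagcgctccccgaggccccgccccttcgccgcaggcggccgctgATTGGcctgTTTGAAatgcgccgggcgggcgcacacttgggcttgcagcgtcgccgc
Ezh2, chr6:47594981-47595280, minus strand: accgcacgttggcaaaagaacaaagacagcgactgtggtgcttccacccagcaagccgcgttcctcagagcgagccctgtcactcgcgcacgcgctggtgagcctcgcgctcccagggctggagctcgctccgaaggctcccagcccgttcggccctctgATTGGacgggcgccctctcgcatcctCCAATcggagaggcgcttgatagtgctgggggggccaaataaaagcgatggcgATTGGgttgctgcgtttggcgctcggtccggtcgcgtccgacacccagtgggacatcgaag

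In Cdk1, the kinase that starts mitosis, a TTTGAA began 15 bases before the start and an ATTGG 48 bases before it. In Top2a, the topoisomerase that untangles sister chromatids, a TTCAAA began 23 bases before the start, and 6 CCAAT or ATTGG matches lay upstream of it. A match of letters is a description of the window and not evidence of binding.

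Over all nuclei the list was higher in KO. The 40 genes together had 21232 UMIs (267 CPM) in WT and 63001 UMIs (861 CPM) in KO, a log2 ratio of 1.69 (1.66 to 1.71). At least 2-fold higher were 35 of the 40 genes, and 0 were at least 2-fold lower. Of all 20225 genes compared, 23.5% were at least 2-fold higher and 19% at least 2-fold lower. The median log2 ratio was 1.93 for the list and 0.12 for all genes compared. Mki67, the proliferation antigen that coats mitotic chromosomes, was 10.9 CPM in WT and 38.9 CPM in KO (log2 1.84, 1.73 to 1.95). Top2a was 9.66 and 39.3 CPM (log2 2.02). Kif23, a kinesin that bundles the midzone of the spindle, was 6.36 and 31.0 CPM (log2 2.29). The genes under 2-fold were Ezh2, the methyltransferase of the Polycomb complex (60.2 and 88.5 CPM), the condensin subunit gene Ncapg2 (11.7 and 20.7 CPM), Ccna2 (1.16 and 1.89 CPM), Ccnb2 (3.87 and 3.54 CPM) and Kif20a (2.19 and 1.82 CPM). Ccnb2 and Kif20a were the 2 genes with lower values in KO, and their intervals held 0.

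The higher level over all nuclei went together with a different mix of classes. Immune nuclei gave 6.15% of all UMIs in WT and 40.1% in KO, and 24.6% of the UMIs of the list in WT and 68.6% in KO. Macrophages, the largest immune subclass, alone gave 58.5% of the UMIs of the list in KO and 18.9% in WT. When the WT level of each class was weighted by the share of UMIs that the class had in KO, the list summed to 599 CPM, which is 1.16 above the measured WT level on the log2 scale. With the KO level of each class and the WT shares it summed to 408 CPM (log2 0.61). For the share of nuclei with at least 4 list UMIs, which was 6.98% in WT and 19.5% in KO, the same weighting gave 11.9% with WT values and the KO mix, and 12.4% with KO values and the WT mix. In these libraries fewer nuclei of a class and less recovery of that class cannot be told apart.

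Of the classes, immune nuclei held the largest share of nuclei high in the list. In WT 179 of 912 immune nuclei had at least 4 list UMIs (19.6%, 17.1 to 22.4%), and in KO 1317 of 4485 (29.4%, 28.0 to 30.7%). In ASPCs the shares were 8.83% (78 of 883) and 18.0% (425 of 2365). In endothelial cells they were 3.70% (128 of 3463) and 3.59% (47 of 1308), with overlapping intervals. Most endothelial nuclei lay in clusters with lower shares. In WT these were 1.02% in cluster 2 (45.1% of the class) and 0.79% in cluster 5 (25.6%), and in KO 2.17% in cluster 3 (81.0%). In mural cells the shares were 4.50% and 5.53%. Adipocyte nuclei, which should not divide, reached 7.18% (325 of 4527) and 9.58% (190 of 1983), and the few muscle nuclei 1 of 25 in WT and 0 of 13 in KO, a count that allows up to 23.1%. With all UMIs, endothelial and mural shares were thus no higher than the adipocyte share. Adipocyte nuclei were deeper (a median of 6933 UMIs in WT and 5972 in KO, against 3520 and 4281 in the immune class and 2164 and 2113.5 in the endothelial class).

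**Figure D1:**
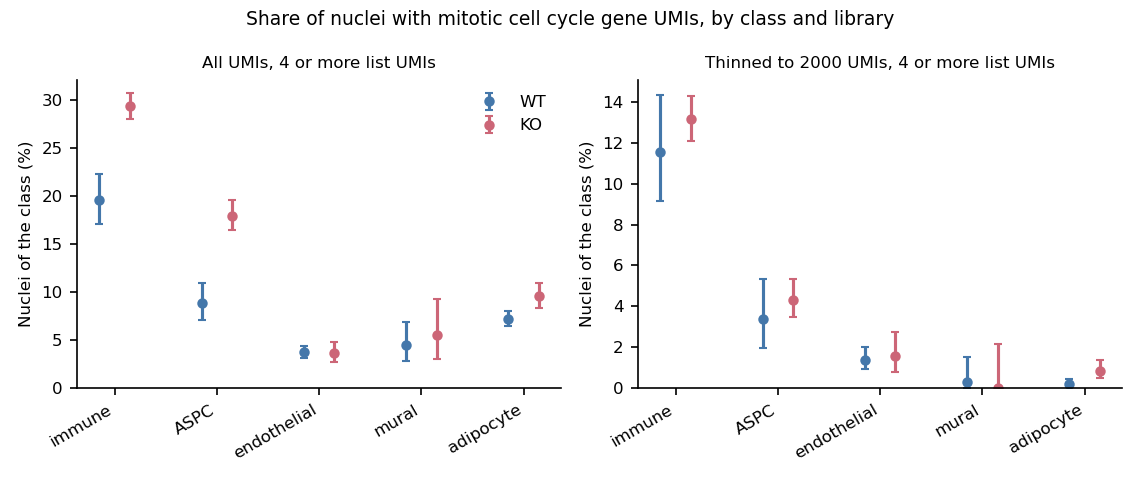
Share of nuclei (%, y axis, scaled separately in each panel) with at least 4 UMIs over the 40 genes, by class and library, with all UMIs (left) and after each nucleus was thinned to 2000 UMIs (right). Points are shares of 1 library and bars 95% exact binomial intervals. After thinning, the WT and KO intervals of the immune class overlap (11.6% and 13.2%), and both adipocyte shares are under 1%.

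Deeper nuclei held more list UMIs. Immune nuclei with at least 4 list UMIs had a median of 7299 UMIs in WT and 7813 in KO, and those with 0 list UMIs 1858 and 2744. After each nucleus was thinned to 2000 UMIs, 71 of 613 immune nuclei kept at least 4 list UMIs in WT (11.6%, 9.16 to 14.4%) and 496 of 3759 in KO (13.2%, 12.1 to 14.3%), and 299 and 726 immune nuclei were too shallow to enter. The thinned shares were 3.35% and 4.33% in ASPCs, 1.38% and 1.54% in endothelial cells and 0.21% and 0.84% in adipocytes. At equal depth the immune and ASPC shares were above the adipocyte share beyond counting error in both libraries, and the endothelial share was in WT (0.91 to 2.00% against 0.09 to 0.40%). The intervals of WT and KO overlapped in the immune, ASPC and endothelial classes and not in adipocytes (0.09 to 0.40% and 0.47 to 1.38%, on 8 and 15 nuclei). Without thinning, the order of the adipocyte shares turned from 7.18% and 9.58% with at least 4 list UMIs to 1.99% in WT and 1.36% in KO with at least 8. At 1000 UMIs and at least 2 list UMIs the immune shares were 13.1% (10.8 to 15.5%) and 16.7% (15.5 to 17.8%), and the endothelial shares 3.11% (2.53 to 3.78%) and 5.71% (4.46 to 7.18%), so that here the intervals of WT and KO did not overlap in the endothelial class. Among immune nuclei of 2000 to 4000 UMIs the shares were 12.8% in WT and 13.8% in KO, and among those of 8000 to 16000 UMIs they were 40.0% and 56.0%. Nuclei just inside and just outside the limit were common: of the immune nuclei 38 in WT and 273 in KO had exactly 4 list UMIs, and 51 and 421 had exactly 3.

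**Figure D2:**
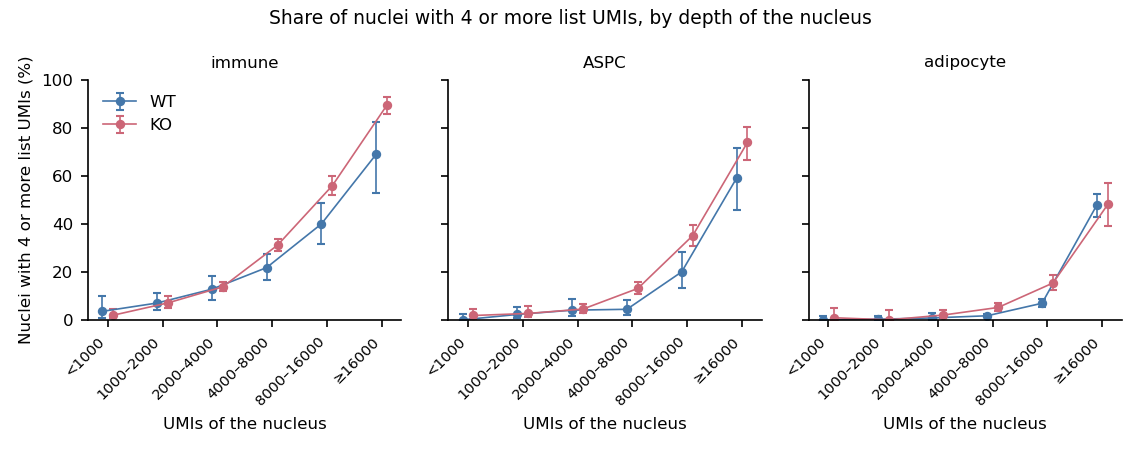
Share of nuclei with at least 4 list UMIs (%, y axis) by the UMIs of the nucleus (x axis), for WT and KO in immune, ASPC and adipocyte nuclei. Points are shares of 1 library and bars 95% exact binomial intervals. Up to 4000 UMIs the libraries overlap in the immune class, and above 4000 UMIs the KO points are higher (31.1% against 21.8% at 4000 to 8000 UMIs).

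In KO the nuclei high in the list were called doublets more often than those with 0 list UMIs. Scrublet called 19.4% of the KO nuclei doublets and 0% in WT, where its threshold separated none. Of the KO immune nuclei with at least 4 list UMIs 36.8% were called doublets, against 12.7% of those with 0 list UMIs. In ASPCs these shares were 51.3% and 17.9%, and in endothelial nuclei 42.6% and 5.18%. Cluster 14, with 1158 KO and 14 WT nuclei and a median of 13058.5 UMIs, was called doublets to 85.7% and held 27.3% of the KO immune nuclei with at least 4 list UMIs. Without cluster 14 the immune shares were 19.5% in WT and 24.7% in KO, and with thinning to 2000 UMIs as well 11.6% and 12.4%. Cluster 11, which held 42.5% of the WT immune nuclei, was kept in these values. Of its 144 KO nuclei 92.4% were called doublets and 36.1% were high in the list. Nuclei whose score for a second class was above 0.5 of the best made up 31.8% of the WT and 27.3% of the KO immune nuclei high in the list, against 25.7% and 14.8% of those with 0 list UMIs. In ASPCs they made up 67.9% and 39.8%, against 42.2% and 15.2%. In endothelial nuclei they made up 60.2% and 46.8%, against 20.4% and 13.2%, and in mural nuclei 80% and 23.1%, against 24.0% and 21.2%.

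At least 16 list UMIs were held by 62 WT (6.80%) and 473 KO immune nuclei (10.5%), and up to 200 list UMIs were found in a WT and 403 in a KO nucleus. Immune nuclei with at least 8 list UMIs had UMIs of a median of 17 different genes of the list in WT and 15 in KO, against 10 and 8 in ASPCs and 6.5 and 8 in adipocytes. These values describe nuclei chosen by the same UMIs, and 43.6% of the KO immune nuclei among them were called doublets. The immune class was split by markers of its subclasses. Macrophages with at least 4 list UMIs were 137 of 660 in WT (20.8%) and 1066 of 3563 in KO (29.9%), and 9.48% and 13.2% after thinning to 2000 UMIs. Dendritic nuclei gave 5 of 21 and 50 of 147, T and NK nuclei 8 of 38 (21.1%) and 17 of 87 (19.5%), and B nuclei 0 of 17, which allows up to 17.6%, and 1 of 35. Of all nuclei with at least 4 list UMIs 59.4% were immune and 19.2% ASPC in KO, whereas in WT 20.1% were immune and 36.5% were in the adipocyte class. Nuclei with no class made up 17.5% in WT (156 of the 2451 such nuclei) and 10.1% in KO (225 of 970). Of all KO nuclei with no class 38.1% were called doublets.

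Pooled over the immune class, the genes of the list differed much less between the libraries than over all nuclei. Their summed level was 1068 CPM in WT and 1472 CPM in KO (log2 0.46, 0.42 to 0.50). Higher in KO were 35 of the 40 genes, but 0 by at least 2-fold, and 0 were at least 2-fold lower, while 9.14% of all 16263 genes compared in this class were at least 2-fold higher and 16% lower. The median log2 ratio was 0.44 for the list and -0.02 for all genes compared. These pooled values mix different clusters in each library. In cluster 9 the list stood at 834 CPM in 98 WT and 2033 CPM in 1801 KO immune nuclei. In cluster 12 it stood at 968 CPM in 108 WT and 1531 CPM in 216 KO immune nuclei. The order of the libraries turned in cluster 10, at 1883 CPM over its 28 WT and 1419 CPM over its 1360 KO nuclei. Every gene but Gtse1 in both libraries and Ccna2 in KO had its highest level in the immune class of the 5 classes with over 200 nuclei in each library.

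**Figure D3:**
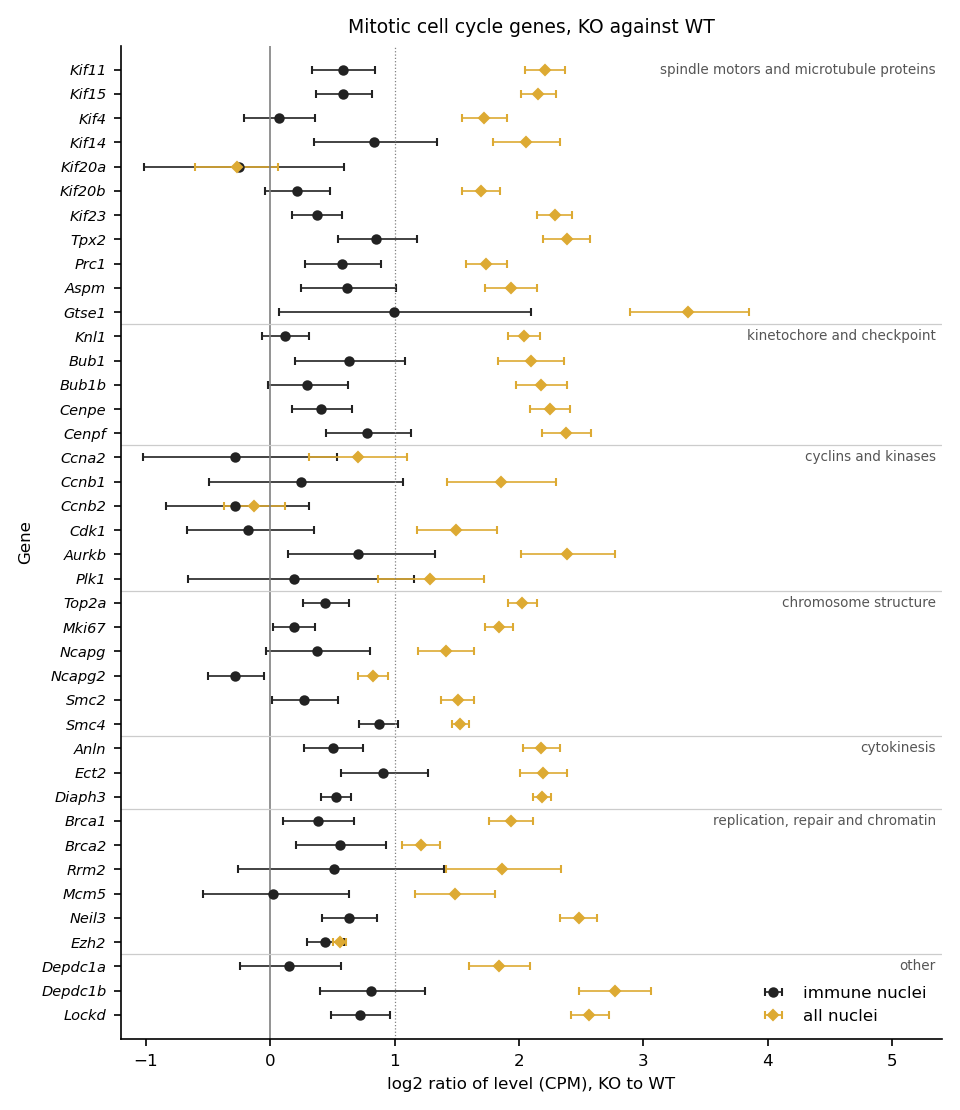
Log2 ratio of the level (CPM) in KO to that in WT (x axis) for each of the 40 genes (y axis, grouped by role), in immune nuclei (circles) and over all nuclei (diamonds). Bars are 95% exact intervals for counting error, the solid line marks 0 and the dotted line a 2-fold ratio. Most diamonds lie beyond 1, and no circle reaches it.

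By role, the spindle motors and microtubule proteins summed to 232 CPM in WT and 325 CPM in KO immune nuclei (log2 0.49). Kif11, the motor that pushes the spindle poles apart, was 28.9 and 43.3 CPM (log2 0.58, 0.33 to 0.85). Tpx2, which activates Aurora A on the spindle, was 18.8 and 34.0 CPM (log2 0.85, 0.54 to 1.18). Kif4, a chromosome-bound motor, was 24.4 and 25.5 CPM, and the interval of its ratio held 0. Gtse1 had the highest ratio of the list (2.05 and 4.09 CPM, just under 2-fold, with a log2 interval of 0.07 to 2.09) on 10 and 120 UMIs. The lowest of the 11 log2 ratios was -0.25, for Kif20a, a motor of the central spindle.

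The kinetochore and checkpoint genes all had higher values in KO immune nuclei, with log2 ratios from 0.12 to 0.78, none at least 2-fold. The intervals of Knl1 and Bub1b (log2 0.30, -0.02 to 0.63) held 0. Cenpf was 16.4 CPM in WT and 28.1 CPM in KO (log2 0.78, 0.45 to 1.13). Cenpe, the kinetochore motor, was 32.2 and 42.8 CPM (log2 0.41, 0.17 to 0.66). Knl1, the platform on which the checkpoint kinase Bub1 assembles, was 53.7 and 58.3 CPM (log2 0.12, -0.07 to 0.31).

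The cyclins and kinases had the fewest UMIs, 148 in WT and 945 in KO immune nuclei, and 3 of the 6 had higher and 3 lower values in KO. Cdk1 was 8.19 CPM in WT and 7.25 CPM in KO. Ccnb2, a mitotic cyclin, was 6.55 and 5.38 CPM, and Ccna2, the cyclin of S phase and early mitosis, was 3.69 and 3.03 CPM. The intervals of these 3 ratios held 0. Aurkb, the kinase of the chromosomal passenger complex, was 5.73 and 9.37 CPM (log2 0.71, 0.14 to 1.32).

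Among the chromosome structure genes, Smc4 (ENSMUSG00000034349, protein coding, chr3:69004738-69034623, plus strand), which encodes an ATPase subunit of condensin, was 73.7 CPM in WT and 135 CPM in KO immune nuclei (log2 0.87, 0.71 to 1.03). Ncapg2 had the only ratio with an interval below 0, at 39.9 and 32.9 CPM (log2 -0.28, -0.50 to -0.05). Mki67 (ENSMUSG00000031004, protein coding, chr7:135689784-135716361, minus strand) was 67.8 and 77.2 CPM (log2 0.19, 0.02 to 0.36) and Top2a (ENSMUSG00000020914, protein coding, chr11:98992943-99024189, minus strand) 55.1 and 74.9 CPM (log2 0.44, 0.26 to 0.63). A UMI of Mki67 was found in 93 WT immune nuclei (10.2%) and in 569 KO immune nuclei (12.7%), and after thinning to 1000 UMIs in 4.72% and 5.37%. The share with a UMI of Mki67 in thinned adipocytes was 0.21% in WT and 0.43% in KO.

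The 3 cytokinesis genes had log2 ratios of 0.51 to 0.91 in immune nuclei. Ect2, which switches on RhoA at the cleavage furrow, was 15.6 CPM in WT and 29.2 CPM in KO. Anln, the actin-binding anillin, was 33.4 and 47.4 CPM. Diaph3, a formin that nucleates actin, had the most UMIs of the list in immune nuclei, at 122 and 176 CPM. Per 100 kb of gene, however, Diaph3 stood at 36.3 CPM in KO, since its gene spans 486 kb, while Smc4 stood at 451 CPM, Mki67 at 291 CPM and Top2a at 240 CPM.

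The replication, repair and chromatin genes ranged from log2 0.02 for Mcm5, a subunit of the replicative helicase (6.14 and 6.23 CPM), to 0.64 for Neil3, a DNA glycosylase (38.5 and 59.8 CPM). Ezh2 was 83.1 and 113 CPM. Of the others, the long noncoding RNA gene Lockd was 33.8 and 55.7 CPM (log2 0.72, 0.49 to 0.96). Without cluster 14 the list was further apart in immune nuclei, with a median log2 ratio of 0.62 against -0.09 for all genes. At least 2-fold higher in KO were then 6 of the 40 genes (6.87% of all 15172 genes compared), Kif14, Gtse1, Aurkb, Smc4, Ect2 and Depdc1b, and 0 were lower (19.9%). Gtse1 then had 8 and 64 UMIs, and its interval held 0 (-0.02 to 2.32).

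In ASPCs the list summed to 436 CPM in WT and 665 CPM in KO (log2 0.61, 0.54 to 0.68). At least 2-fold higher were 10 of the 40 genes and lower 0, against 10.1% and 16.7% of all 15580 genes compared, and the median log2 ratio was 0.54 for the list and -0.01 for all. Among these 10 were Gtse1 (4 and 51 UMIs), Cenpf (5.93 and 18.2 CPM, log2 1.62, 1.07 to 2.21), Neil3 (6.72 and 18.5 CPM) and Ect2 (5.34 and 13.9 CPM). Mki67 was 17.0 and 19.8 CPM, with an interval that held 0. The 12 immune markers summed to 302 CPM in WT and 1042 CPM in KO ASPC nuclei, led by Mrc1 and by Dock2 with none at 0, and 32.7% of the KO ASPC nuclei high in the list were in cluster 14. Without cluster 14 the median log2 ratio was 0.66 over the 39 genes compared, with 12 at least 2-fold higher (8.33% of all genes) and 1 lower (17.4%). Gtse1 then had 4 and 24 UMIs (log2 1.31), with an interval that held 0 (-0.24 to 3.29). The part of the other immune marker UMIs was not tested. Different clusters supplied the class, with 32.3% of the WT nuclei in cluster 7 and 48.9% of the KO nuclei in cluster 16. In cluster 16 the list stood at 292 CPM in WT and 677 CPM in KO. The order of the libraries turned in cluster 15, at 740 and 641 CPM.

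In endothelial nuclei the list summed to 333 CPM in WT and 504 CPM in KO (log2 0.60). At least 2-fold higher were 9 of the 38 genes compared and lower 1, against 6.23% and 19.5% of all 14935 genes. Lockd was 6.11 and 19.8 CPM (log2 1.69, 1.21 to 2.17) and Kif23 8.74 and 19.0 CPM (log2 1.12). The gene at least 2-fold lower, Kif20a, had 33 UMIs in WT and 3 in KO, and its interval held 0. The immune markers summed to 422 and 884 CPM in these nuclei. Different clusters supplied the class, with 81.0% of the KO nuclei in cluster 3 (546 CPM for the list) and 45.1% of the WT nuclei in cluster 2 (211 CPM). The order of the libraries turned in cluster 1, at 377 CPM in WT and 181 CPM in KO, and in cluster 6, at 299 and 242 CPM. In mural nuclei 9 genes of the list had enough UMIs to be compared, of which 0 were at least 2-fold higher (7.27% of all genes compared) and 1, Kif4, was at least 2-fold lower (15.1%), with 20 UMIs in WT and 4 in KO and an interval that held 0.

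In adipocyte nuclei Ezh2 and Smc4 were the genes of the list with the most UMIs. In WT 2364 of the 6177 list UMIs were of Ezh2 and 828 of Smc4, and in KO 688 and 440 of 3180. The list summed to 150 CPM in WT and 217 CPM in KO. Ezh2 gave 57.3 and 46.9 CPM of these, and Smc4 20.1 CPM in WT (log2 ratio of KO to WT 0.58), whereas Mki67 stood at 3.25 and 4.16 CPM and Top2a at 2.93 and 4.78 CPM. The level of a gene in the immune class was a median of 14.7 times that in adipocytes in WT and 8.14 times in KO. In WT it was lowest for Ezh2, at 1.45 times. Of the 26 WT adipocyte-class nuclei with at least 16 list UMIs 23 were in cluster 7, and of the 11 in KO 8 were in cluster 14.

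Between the libraries, 19 of the 39 genes compared in adipocytes were at least 2-fold higher in KO and 2 at least 2-fold lower, and of all 17192 genes compared 19.7% were higher and 19.1% lower. Gtse1 was 0.27 CPM in WT and 4.84 CPM in KO (11 and 71 UMIs, log2 4.18, 3.26 to 5.25). Bub1b, a checkpoint gene, was 1.04 and 7.30 CPM (log2 2.81, 2.29 to 3.36), and Knl1 2.18 and 7.64 CPM (log2 1.81). In the other direction, Ccnb2 was 4.34 CPM in WT and 0.75 CPM in KO (179 and 11 UMIs, log2 -2.53, -3.56 to -1.66), and Kif20a was 1.99 and 0.61 CPM (log2 -1.69, -2.87 to -0.70). Cdk1 was 0.53 and 0.48 CPM. Of the 39 genes 34 had higher and 5 lower values in KO, with a median log2 ratio of 0.93 against 0.06 for all genes. Without cluster 14 the median was 0.54, and 11 of 38 compared were at least 2-fold higher (18.6% of all genes) and 3 lower (19.8%). Kif20a overlaps Cdc23 on the opposite strand, and whether counting used strand is not stated in the sources used here. Of the 38 KO adipocyte nuclei with a UMI of Gtse1 10 had at least 4 UMIs over the other 39 genes.

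**Figure D4:**
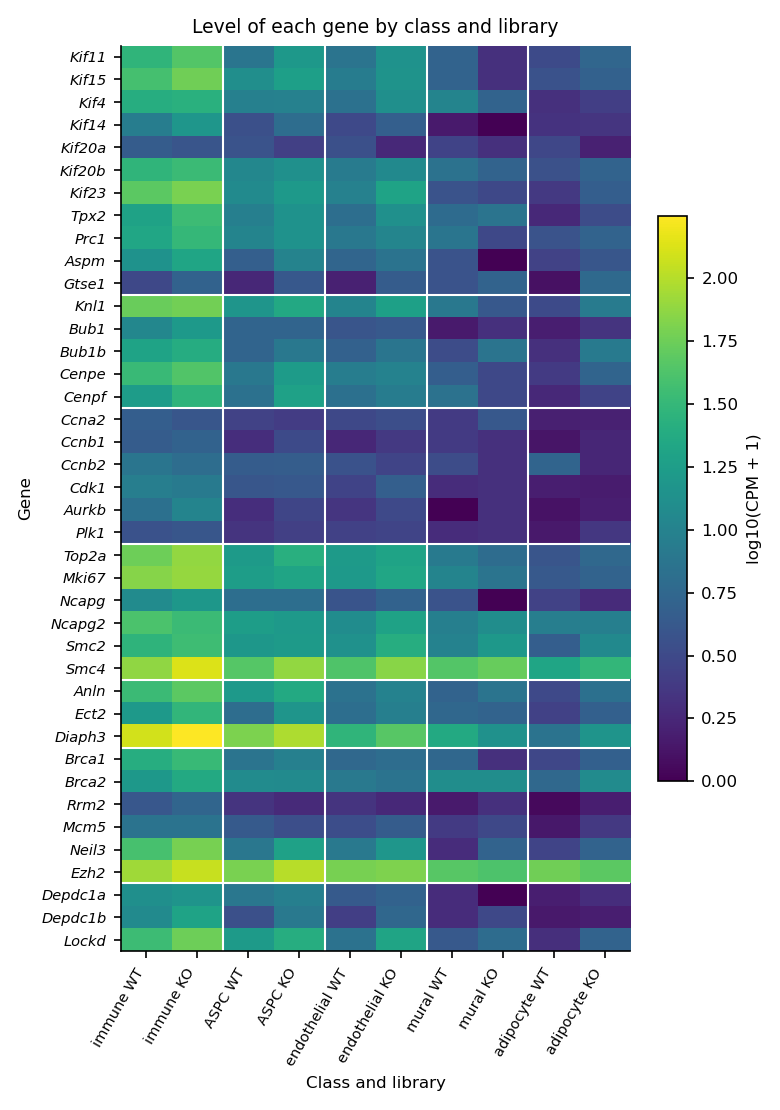
Level of each of the 40 genes (rows, grouped by role) in 5 classes of WT and KO nuclei (columns), as log10(CPM + 1) of the pooled UMIs of each class and library. The immune columns are brightest for 38 or more of the 40 genes in each library, and Ezh2 and Smc4 stand out as the genes with the highest levels in the adipocyte columns (57.3 and 20.1 CPM in WT).

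The genes of the list were detected together in immune nuclei. Of the 93 WT immune nuclei with a UMI of Mki67 70 had at least 4 UMIs over the other 39 genes (75.3%), and of the 819 without a UMI of Mki67 13.1% had. In KO the shares were 84.7% of 569 and 20.9% of 3916. Across the genes with at least 10 nuclei the median share was 82.1% in WT and 85.0% in KO. It was lowest for Smc4 (41.4% and 42.3%) and Ezh2 (43.5% and 54.0%), and highest for Ncapg in WT (97.4%) and Bub1 in KO (96.2%). In adipocytes the share for Ezh2 was 8.05% of 1391 nuclei in WT and 11.2% of 448 in KO, and that for Mki67 42.9% of 70 and 33.3% of 39. The WT immune nuclei with a UMI of Mki67 were also deeper, with a median of 6555 UMIs against 3520 for all WT immune nuclei.

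Cell cycle genes outside the list were compared between immune nuclei with at least 4 and with 0 list UMIs, which these genes did not help to choose. Of 48 other mitosis genes 37 of 40 compared in WT and 45 of 48 in KO were at least 2-fold higher, with medians of 7.50-fold and 9.49-fold. Of all genes compared, 6.16% in WT and 15.5% in KO were at least 2-fold higher. Cit, the citron kinase of the midbody, stood at 72.6 against 5.92 CPM in WT (12.3-fold, 5.49 to 34.1) and at 75.5 against 7.89 CPM in KO (9.58-fold, 6.55 to 14.6).

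The same comparison in ASPCs gave 13 of 15 mitosis genes compared in WT (5.89% of all genes) and 42 of 45 in KO (9.63%), with medians of 7.51-fold and 8.00-fold. In endothelial nuclei it gave 30 of 34 (9.81%) and 10 of 11 (13.7%). In adipocyte nuclei it gave 12 of 27 (11.5%) and 9 of 16 (5.45%), with medians of 1.72-fold and 2.28-fold, the lowest of the 4 classes. The rest of the 48 genes had too few UMIs to be compared. A rare gene reaches the limit mostly through nuclei in which it is high, so these counts lean to higher genes. Of the KO nuclei high in the list, 51.3% of ASPC and 42.6% of endothelial nuclei were called doublets. Their part in these ratios was not tested.

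Genes of DNA replication followed in immune nuclei, with 30 of 36 compared in WT and 34 of 44 in KO at least 2-fold higher (6.16% and 15.5% of all genes) and medians of 4.36-fold and 3.78-fold. Pola1, the catalytic subunit of the primase polymerase, was 313 against 110 CPM in WT and 340 against 146 CPM in KO. Brip1, a helicase that partners Brca1, was 7.36-fold and 9.55-fold higher. The G1 cyclins, kinases and RB family had medians of 1.36-fold and 1.15-fold. At least 2-fold higher were 4 of 16 in WT and 2 of 16 in KO, and lower 1 and 0. The share higher was above that of all genes in WT (6.16%) and not in KO (15.5%). Rbl1 (p107) was 3.37-fold and 2.35-fold higher, while Ccnd3, a G1 cyclin, was lower in nuclei high in the list (0.35-fold and 0.60-fold). Of the CDK inhibitors 1 of 3 compared in WT and 2 of 7 in KO were at least 2-fold higher and 0 and 1 lower (3.04% and 1.24% of all genes), with medians of 1.10-fold and 1.43-fold. Cdkn2c (p18) was 2.25-fold and 4.09-fold higher, and in KO Cdkn2d had 35 UMIs against 2, while Cdkn1c was 0.41-fold, both named after their values were seen.

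**Figure D5:**
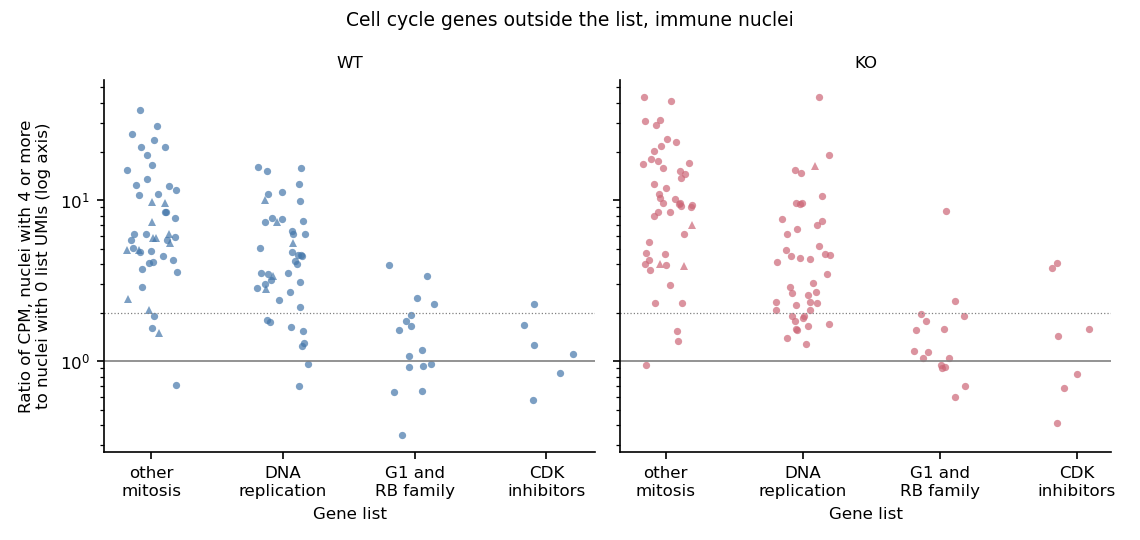
Ratio of the level (CPM, log axis) in immune nuclei with at least 4 list UMIs to that in immune nuclei with 0 list UMIs, for cell cycle genes outside the 40, by gene list and library. Each point is a gene, triangles are lower bounds for genes with 0 UMIs in the latter, and the lines mark 1 and 2. The mitosis and replication genes lie mostly above 2 and the G1 and RB family genes around 1.

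Of the 6162 genes outside all lists that could be ranked, the 10 with the largest smaller ratio of both libraries were Bard1, Zwilch, Kntc1, Efcab11, Rad54b, Ccnf, Stil, Knstrn, Mastl and Cenpp. To be ranked, a gene needed at least 50 UMIs in the immune nuclei high in the list in each library. The ranking therefore favours genes high in those nuclei by its own rule and is a description only. Bard1 is the partner of Brca1 in repair, and Zwilch and Kntc1 are subunits of the RZZ complex of the kinetochore. Bard1 had 737 UMIs (46.3 CPM) in KO immune nuclei high in the list and 14 UMIs (4.09 CPM) in those with 0, and 69 and 2 UMIs in WT. Kntc1 had 585 and 6 UMIs in KO and 56 and 0 in WT, which is at least 10.5-fold higher. Cenpp, a centromere protein gene, was 171 against 27.5 CPM in KO and 167 against 12.8 CPM in WT.

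Between the libraries the other lists had smaller median ratios in the immune class than the list of 40, and the 5 genes past 2-fold are named after their values were seen. Of all genes compared in this class 9.14% were at least 2-fold higher and 16% lower. The 48 other mitosis genes had a median log2 ratio of 0.38 with 1 gene, Kifc1, at least 2-fold higher (5.73 and 12.0 CPM). The 44 DNA replication genes had a median of 0.21 with 0 at least 2-fold higher and Gins2 lower (9.83 and 2.96 CPM). The 16 genes of G1 had a median of 0.16 with 0 past 2-fold in either direction. Of 7 CDK inhibitors Cdkn2a (p16 and Arf) had 5 UMIs in WT and 157 in KO (log2 2.38), Cdkn2b was 0.82 and 2.21 CPM (4 and 65 UMIs) and Cdkn1c was 4.51 and 1.77 CPM. In ASPCs 13 of 46 other mitosis genes compared were at least 2-fold higher in KO and 1 lower, and of 42 replication genes, whose median log2 ratio was -0.06, 1 was higher and 3 were lower (10.1% and 16.7% of all genes).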

How the data were processed

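Nuclei of BAT from 1 WT and 1 KO library (10x 3' v3.1) were analysed. The authors aligned reads to GRCm38 with STAR within Cell Ranger and deposited raw UMI counts per gene and barcode, 1 matrix per library and not scaled to equal depth. The submitters' processing notes name Cell Ranger 5.0.0 and Seurat 3.1.1, and the methods name an earlier Cell Ranger. Whether intronic reads and strand were used in counting is not given in the sources used here, so overlapping genes may share reads.

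Barcodes had to hold 200 genes or more and at most 10% mitochondrial UMIs, and to lie no further than 3 median absolute deviations from their library's median log UMIs and log genes. Total UMIs per library, printed above, set the precision, and the number of mice limits it further. A score was the share of marker UMIs above a baseline, relative to the mean of the class. A nucleus took the best class other than adipocyte where its score was at least 0.2 and 0.5 of the adipocyte score, otherwise adipocyte where that score was at least 0.5, and otherwise no class. A gene was compared where it had at least 20 UMIs over both libraries of a class, after scaling to CPM of the class. Shares were also computed after each nucleus was thinned to 1000 UMIs, with at least 2 list UMIs, or to 2000 UMIs, with at least 4. Leiden clusters (2000 variable genes, 30 components, resolution 0.5) and Scrublet calls were descriptions, and doublets were kept, since Scrublet did not work in WT. Promoters came from RefSeq, gene positions from GENCODE release M21. All 40 genes could be named, with the genes of other cell cycle lists that had the most UMIs or passed 2-fold in both libraries. The 10 leading genes outside the lists could be named too, with at least 50 UMIs in immune nuclei high in the list in each library. A gene under this rule is not reported here. The genes and lists were chosen with earlier results of these data known. The class rule, the weighting by class, co-detection and 5 alternatives were set after seeing the data. Shares and ratios were tested on simulated data. 0 sample columns were left unused. Python 3.11.15, numpy 2.4.6, scipy 1.17.1, pandas 2.3.3, scanpy 1.11.5, anndata 0.12.19, igraph 0.11.9, scikit-image 0.26.0 and matplotlib 3.10.9 were used.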

Additional observations from a re-analysis of the deposited data

How the results depend on the processing

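No paired analysis was possible because each genotype had 1 library, and for the same reason no replicate could be left out. All values are log2 ratios of KO to WT. For the share of all nuclei with at least 4 list UMIs it was 0.95 with at least 2 and 1.78 with at least 8 UMIs. It was 1.66 thinned to 1000 UMIs with at least 2 list UMIs, and 2.13 thinned to 2000 UMIs. With the mitotic roles only it was 1.93 and without Ezh2 1.88. Of the alternatives added after seeing the data, it was 1.14 without cluster 14, 1.66 with at least 4 different genes, 1.90 without Ezh2 and Smc4 and 1.97 thinned to 2000 UMIs without cluster 14. The immune share (0.58) was 0.35 thinned to 1000 UMIs with at least 2 list UMIs, and 0.19 thinned to 2000 UMIs. It was 0.34 without cluster 14 and 0.10 thinned to 2000 UMIs without cluster 14 (-0.27 to 0.48, an interval that holds 0). The ASPC share (1.02) was 0.64 with at least 8 UMIs, 0.37 thinned to 2000, 0.42 with mitotic roles only, 0.52 with 4 different genes, 0.67 without Ezh2 and Smc4 and 0.26 thinned without cluster 14. The endothelial share (-0.04) was 0.88 thinned to 1000 UMIs with at least 2 list UMIs, which changed depth and limit together. The adipocyte share (0.42) turned to -0.55 with at least 8 UMIs, and was 2.03 thinned to 2000, 0.84 without Ezh2, 1.03 with classes from clusters, 0.68 without Ezh2 and Smc4 and 1.18 thinned without cluster 14. The summed level over all nuclei (1.69) was 1.47 as a mean over nuclei and 1.57 centred on the median gene, which lay at 0.12. In immune nuclei (0.46) it was 0.38 with no filter on nuclei, 0.54 with classes from clusters and 0.65 without cluster 14, and in ASPCs (0.61) 0.83 as a mean over nuclei and 0.70 without cluster 14. The 0 immune genes at least 2-fold higher became 3 as a mean over nuclei, 1 each when centred, unfiltered or with classes from clusters, and 6 without cluster 14. Another 79 values of these results stayed within their counting interval or, for numbers of genes, their limit, and the cause of the moves was not tested. Of the endothelial and adipocyte levels 10 values moved and 22 did not.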
